A study of Arabidopsis thaliana with 6 samples.

Results

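The genomic regions described here are broad stretches of chromatin bound by SWN-GFP whose width was nearly the same with and without VAL1 and VAL2. Peaks of 4 libraries that overlapped by at least 1 bp on chromosomes 1 to 5 were merged into 13169 union regions, of which 4079 had a peak in all 4 libraries. Of these, 727 were at least 2000 bp long and are called broad shared regions below. The covered length of a region in a library is the summed length of its peaks there. A broad shared region was taken as stable when its mean covered length in SWN-GFP val1 val2 lay between 20% under and 25% over that in SWN-GFP. Ratios below are the mean in SWN-GFP val1 val2 over the mean in SWN-GFP. This held for 409 regions, or 56.3% of the 727. Another 122 regions had a ratio under this window and are called narrowed, and 196 had a ratio over it and are called widened. The ratio chose the regions, so every comparison of the genotypes within them is a description and carries no test.

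Binding was mapped by sequencing chromatin of Arabidopsis thaliana seedlings, 14 days of age, that had been pulled down with a GFP antibody. The plants of the double mutant were pSWN:SWN-GFP swn val1 val2 (SWN-GFP val1 val2, 2 libraries), and those with VAL1 and VAL2 intact were pSWN:SWN-GFP swn (SWN-GFP, 2 libraries). All plants carried the swn mutation and SWN fused to GFP under the SWN promoter. Whole seedlings were used, so all cell types are averaged and a partial loss of binding cannot be told apart from loss in some cells. An input library of each genotype was sequenced too but is not analysed here. The labels do not say whether the libraries of a genotype came from separate cultures.

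SWN (SWINGER) is a histone methyltransferase of Polycomb repressive complex 2, which places methyl groups on lysine 27 of histone H3 and thereby keeps developmental genes silent outside their proper tissue and time. VAL1 and VAL2 are B3-domain proteins that bind RY elements in DNA and have been linked to the placement of Polycomb complexes at seed maturation genes and at the flowering repressor FLC. Polycomb domains of plants often span a whole gene, and many of the genes they hold encode transcription factors of flowers, leaves and meristems. The comparison asks which broad domains held their width without the VAL proteins.

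The lists behind these regions held 9177 and 9618 peaks in SWN-GFP val1 val2 and 8189 and 8666 peaks in SWN-GFP. The lists carry no read totals, and sequencing depth is therefore unknown. None of the 11 housekeeping genes examined, such as the actin gene ACT2, had a peak in all 4 libraries.

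The stable regions were 2001 to 9936 bp long, with a median of 2734 bp. Their summed covered length was 1081.3 and 1116.7 kb in SWN-GFP val1 val2, against 1057.0 and 1082.6 kb in SWN-GFP. The means were 1099 ± 25.01 kb and 1069.8 ± 18.2 kb (SD, n = 2 each), and the ranges overlapped. The median ratio over the stable regions was 1.02, with quartiles of 0.94 and 1.13. Over all 727 broad shared regions, which were chosen without the ratio, the sums were 1732.7 and 1792.0 kb in SWN-GFP val1 val2, against 1666.4 and 1710.3 kb in SWN-GFP. The ratio of the means was 1.04 and did not pass an exact two-sided permutation test (p = 0.333, the smallest that 2 against 2 libraries allow). Without SWN-GFP val1 val2 replicate 2 it was 0.972, with the regions rebuilt from the other 3 lists (exact p = 0.667, in a test of 1 library against 2 that cannot go below 0.333).

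**Figure D1:**
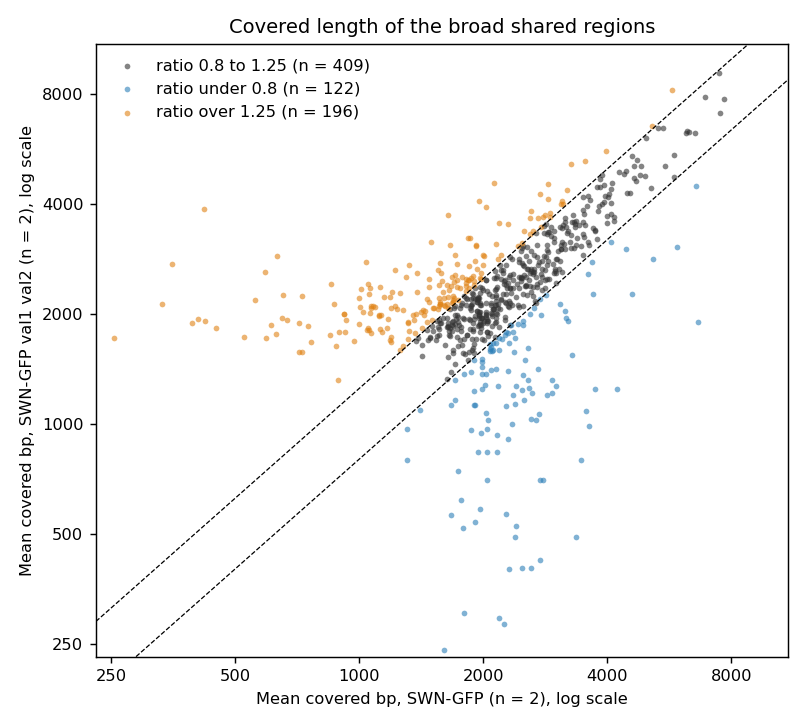
Mean covered length in bp of each of the 727 broad shared regions in SWN-GFP val1 val2 (vertical axis) and in SWN-GFP (horizontal axis), both on a log scale and over 2 libraries. The dashed lines mark the ends of the window. The 409 stable regions lie between them by definition, and they include the region with the highest coverage in SWN-GFP val1 val2, at PTL.

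Stable width did not mean identical width. In 133 of the 409 stable regions (32.5%) the covered length was higher in both SWN-GFP val1 val2 libraries than in either SWN-GFP library, against 44.6% of all broad shared regions. In 80 (19.6%) it was lower in both, against 27.6% of all broad shared regions. In the other 196 the genotypes overlapped. Every library lay within the window of every other library in 249 stable regions, and 230 had a mean that differed by at most 10% down or 11% up.

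The spread between replicates sets the scale for the window. Over all 727 regions, the ratio of replicate 2 to replicate 1 lay in the window in 86.0% for SWN-GFP val1 val2 and in 82.9% for SWN-GFP. Between a library of SWN-GFP val1 val2 and a library of SWN-GFP, 52.1% to 56.8% of the regions lay in it, depending on the pair of libraries. The choice by ratio was also made in a single replicate and read in the other. The other replicate is not unused data, since the 727 regions were built from peaks of both replicates of each genotype. They also had to have a peak in each. Among the 727, regions were chosen by the ratio of the replicate 1 libraries alone, which gave 390. Of these, 297 (76.2%) lay in the window in the replicate 2 libraries, against 97 (28.8%) of the 337 regions that were not chosen. In the reverse direction 297 of 394 (75.4%) lay in the window, against 93 (27.9%) of 333. Regions are not replicates, and these shares are given without a p-value.

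**Figure D2:**
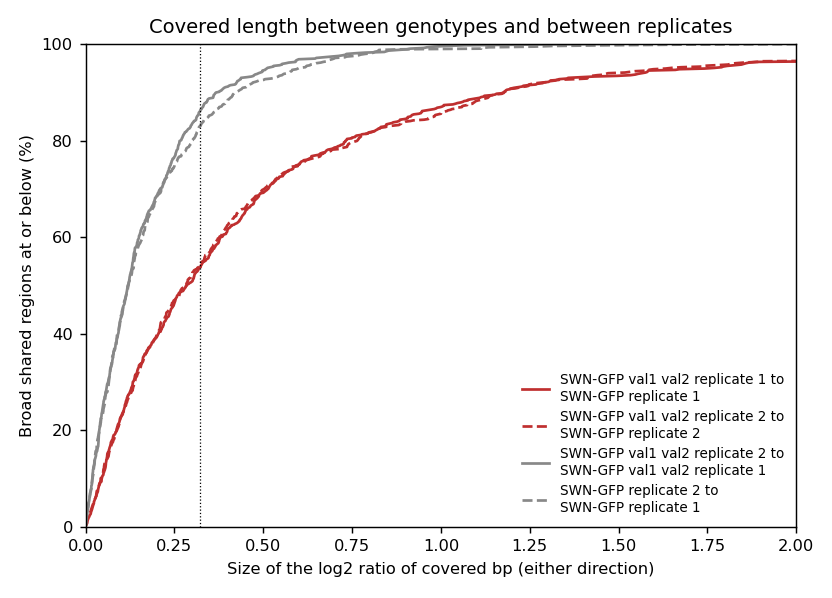
Cumulative percentage of the 727 broad shared regions (vertical axis) by the size of the log2 ratio of covered length (horizontal axis). Red lines compare SWN-GFP val1 val2 with SWN-GFP in replicate 1 (solid) and replicate 2 (dashed), and grey lines compare the replicates of a genotype. At the dotted line, which is a difference of 25% on this scale, the replicate curves stand at 86.0% and 82.9% and the genotype curves near 54%.

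Most covered bases of the stable regions were the same in both genotypes. Shared bases are those covered in both of a pair of libraries as a percentage of those covered in either. Averaged over the 4 pairs between genotypes, the stable regions had a median of 81.9% shared bases and a range from 54.7% to 98.3%. Between replicates the median was 85.1%. More than 80% was shared between genotypes in 245 stable regions, and fewer than 50% in 0. Among the 122 narrowed regions 55 shared fewer than 50%, as did 59 of the 196 widened ones. The rule itself bears on these shares, since unequal covered lengths cap the bases that a pair of libraries can share. The median was 52.1% over the narrowed and 58.5% over the widened regions.

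Many stable regions were not a single block, as was the case for broad shared regions in general. A region was 1 unbroken peak in 205 and 228 of the 409 in SWN-GFP val1 val2 and in 201 and 208 in SWN-GFP. These were 50.1% and 55.7%, and 49.1% and 50.9%, beside 47.5% and 52.8%, and 47.9% and 47.0%, of all broad shared regions. In 86 stable regions (21.0%, beside 17.6% of all broad shared regions) the region was unbroken in all 4 libraries. A single peak in both SWN-GFP val1 val2 libraries faced a broken one in both SWN-GFP libraries in 31 regions (7.58%, beside 7.84% of all broad shared regions). The reverse was seen in 20 (4.89%, beside 6.46%).

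The peaks of stable regions ranked high in all 4 lists, as did those of broad shared regions in general. The authors' fold enrichment of each peak, the ratio of its summit to the local background, was ranked within its own list, and the percentile is the share of that list's peaks that are no stronger. The strongest peak of a stable region had a median percentile of 93.9 and 94.4 in the lists of SWN-GFP val1 val2 and of 93.1 and 93.4 in the SWN-GFP lists. It was in the top 10% of all 4 lists in 215 stable regions (52.6%), against 22 of the 122 narrowed and 34 of the 196 widened regions. It was in the top 1% of all 4 lists in 34 stable regions, against 1 narrowed and 1 widened region. Asking for a high rank in all 4 lists counts against regions that differ between genotypes. The median percentile of widened regions was 91.8 and 92.0 when read in the double mutant lists alone, and that of narrowed regions was 92.1 and 93.1 when read in the SWN-GFP lists alone, close to those of stable regions. When the 727 regions were cut into 5 groups of nearly equal size by the higher of the 2 genotype means of the percentile, the share of stable regions was 42.5%, 52.4%, 50.3%, 56.6% and 79.5%, weakest group first. Replicates also varied less in stronger regions: the share within the window between replicates was 74.0% in the weakest and 93.8% in the strongest group for SWN-GFP val1 val2, and 69.2% and 93.2% for SWN-GFP. The part that this replicate spread has in the shares of stable regions was not tested.

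**Figure D3:**
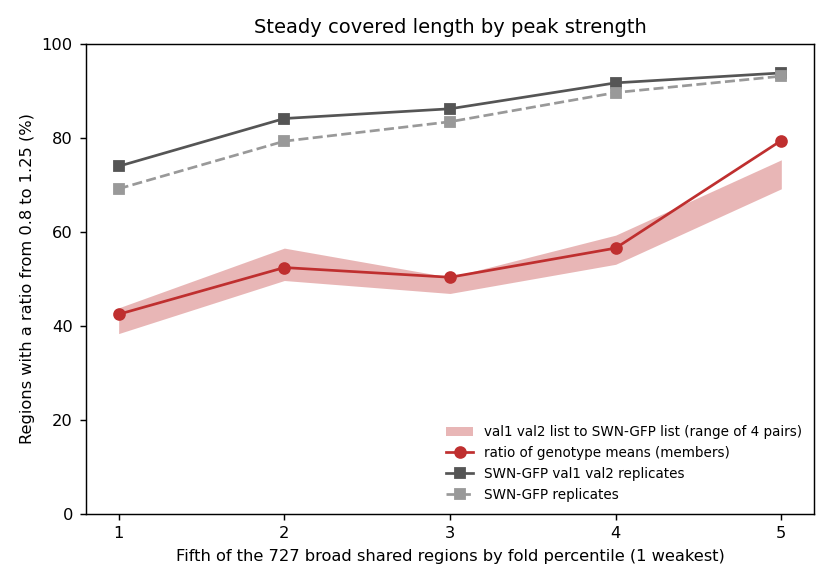
Percentage of broad shared regions with a covered-length ratio in the window (vertical axis) in 5 groups of the 727 regions by the higher genotype mean of the fold percentile (horizontal axis, weakest at 1). The red line is the ratio of genotype means, the band spans the 4 single-library pairs between genotypes, and the grey lines are replicates of a genotype. The red line stands at 42.5% in the weakest and 79.5% in the strongest group, below both replicate lines in all 5.

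The strongest stable region lay at EMF1, which encodes a plant-specific Polycomb group protein. It spanned chr5:3691430-3698126 (TAIR10, 6697 bp) and was 1 unbroken peak in every library. It covered 6278 and 6228 bp in SWN-GFP val1 val2, against 6433 and 6645 bp in SWN-GFP, a ratio of 0.956. Both double mutant libraries were slightly lower, and 95.7% of the bases were shared between genotypes. The fold at its summit was 32.7 and 30.5 in the lists of SWN-GFP val1 val2 and 27.5 and 25.1 in the SWN-GFP lists, each value belonging to its own list. The region held 2335 bp of the EMF1 gene span, or 40.6% of it. A neighbouring broad region 3205 bp away, called by the gene GulLO3 and also reaching into EMF1, was not stable. It covered 4629 and 4368 bp in SWN-GFP val1 val2, against 6622 and 6507 bp in SWN-GFP, a ratio of 0.685. EMF1 was the sole gene with a stable region among 15 genes of Polycomb and VAL proteins, of which 2 had a peak in all 4 libraries.

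The 25 stable regions with the highest mean percentile lay in the top 1% of every list. They included NAC067, a NAC transcription factor gene, at chr4:656858-661286, where coverage was 4272 and 4248 bp in SWN-GFP val1 val2, against 4254 and 3841 bp in SWN-GFP. The SAP region at chr5:13934633-13941204, at the gene of an F-box protein of flower development, covered 6371 and 6256 bp in SWN-GFP val1 val2, against 6235 and 6358 bp in SWN-GFP. The genotypes overlapped at both. Of the 25 regions, 12 overlapped between genotypes, 10 were higher in both double mutant libraries and 3 were lower in both. Over all stable regions, 32.5% were higher in both and 19.6% were lower in both, and over all broad shared regions 44.6% and 27.6%. The strongest summits of the 25 regions lay close together, with a median distance of 29 bp between genotypes.

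Other strong regions lay at genes of varied roles. DAG1, a DOF-type regulator of seed germination, had 2644 and 2941 bp in SWN-GFP val1 val2, against 2692 and 2878 bp in SWN-GFP. SARD1, a regulator of salicylic acid synthesis in immunity, had 2247 and 2223 bp in SWN-GFP val1 val2, against 2003 and 2205 bp in SWN-GFP. At DAG1 the genotypes overlapped, and at SARD1 the double mutant libraries were both higher, by little. Further members of this group were at the homeodomain gene ANL2, the zinc finger gene IDD12, the AT-hook genes AHL22 and AT4G12050, and AT3G27250, AT3G60520 and AT5G06380. At 7 of the 25 the call rested on a single library, and 3 of these, at PTL, SEP2 and AGL8, are described with their groups. The ratio at TT16, a MADS-box gene of the seed coat, was 1.20 and was 1.33 without SWN-GFP replicate 1. At AT5G51795 it was 1.24 and became 1.40 without SWN-GFP replicate 2 or 1.26 without SWN-GFP val1 val2 replicate 2. At AT5G56240 it was 0.883, and without SWN-GFP val1 val2 replicate 2 it was 0.7997, just outside the window. AT1G28500 was no broad shared region without SWN-GFP replicate 1, at a ratio of 1.15.

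A pair of the strong regions carried no protein-coding gene and lay beside developmental genes. The region at the long non-coding RNA AT1G08517 (chr1:23065059-23070311) covered 4951 and 4740 bp in SWN-GFP val1 val2, against 4754 and 4004 bp in SWN-GFP, a ratio of 1.107. It began 1070 bp from the broad region of STM, a homeobox gene that maintains the shoot meristem. The STM region itself had a ratio of 1.32, with 3931 and 4261 bp in SWN-GFP val1 val2, against 2368 and 3830 bp in SWN-GFP. The SWN-GFP libraries differed widely from each other there. The region at AT3G00360 (chr3:6386938-6390580) covered 3439 and 3299 bp in SWN-GFP val1 val2, against 2907 and 3040 bp in SWN-GFP, and lay 1262 bp from that of BRC1, a TCP gene that holds axillary buds dormant.

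The 5 longest stable regions lay at PTL, STY1, AT5G40800, AT1G03720 and AS2. PTL, which encodes a trihelix factor of petal and sepal development, had the longest, at chr5:952957-962892 (9936 bp). It covered 8612 and 9702 bp in SWN-GFP val1 val2, against 7121 and 7799 bp in SWN-GFP. All double mutant values were higher there, at a ratio of 1.23, and without SWN-GFP replicate 2 the ratio was 1.29. AT1G03720 covered 6887 and 7361 bp in SWN-GFP val1 val2, against 7501 and 7548 bp in SWN-GFP, both lower in the double mutant. AT5G40800 covered 7816 and 7884 bp in SWN-GFP val1 val2, against 6495 and 7332 bp in SWN-GFP, both higher in the double mutant. By length, stable regions made up 50.8% of broad shared regions of 2000 bp to under 2500 bp, 54.0% of those under 3000 bp, 65.8% of those under 4000 bp, 56.0% (28 of 50) of those under 5000 bp and 74.4% (29 of 39) of those of 5000 bp or more. The share of regions in the window between the SWN-GFP val1 val2 replicates was 81.7% in the shortest and 100% in the longest of these groups, and its part in the shares of stable regions was not tested.

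**Figure D4:**
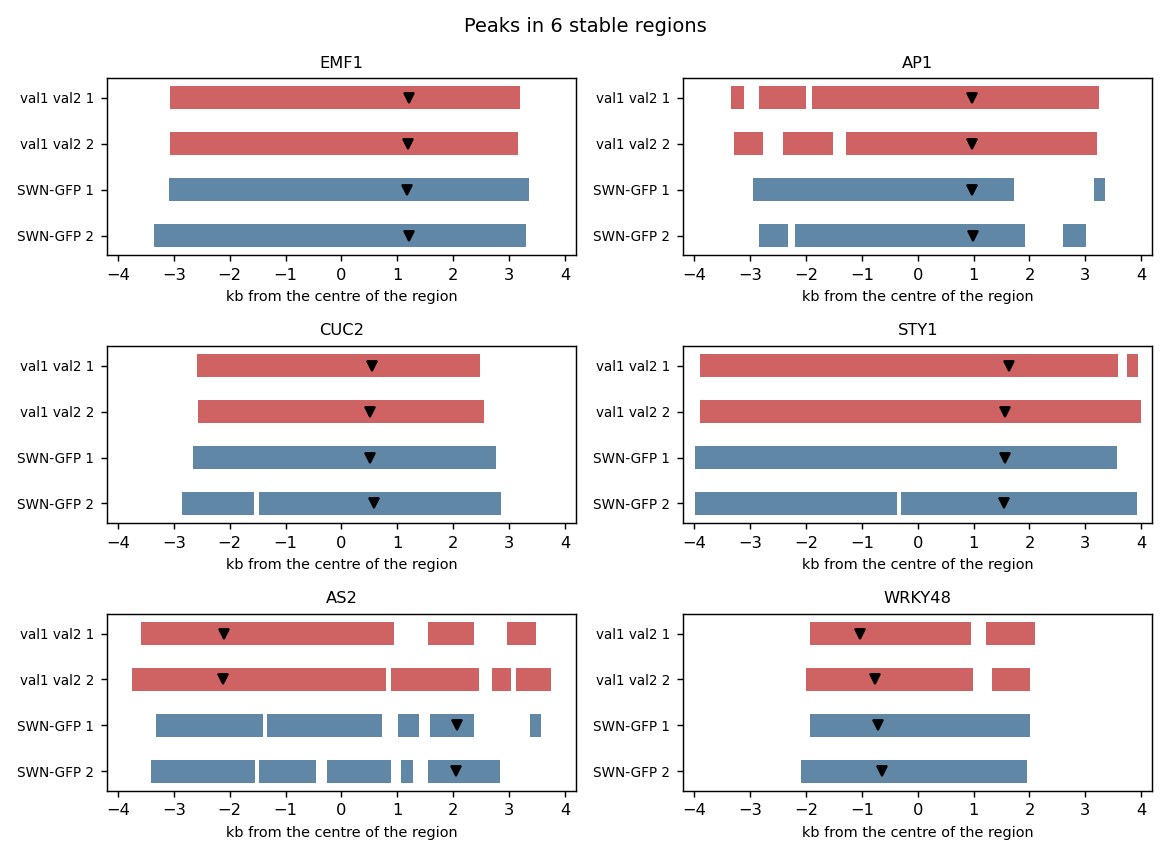
Peaks (bars) and strongest summits (triangles) of each library in 6 stable regions, by distance in kb from the centre of the region. Red bars are SWN-GFP val1 val2 libraries 1 and 2 and blue bars are SWN-GFP libraries 1 and 2. EMF1, CUC2 and STY1 keep near-identical extents, and the main peak of AP1 reaches further to the right in the double mutant libraries. The strongest summit of AS2 sits on opposite sides of the centre in the genotypes, with peaks on both sides in every library. The gap at WRKY48 is seen in the double mutant alone.

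Genes of floral organ identity made up the largest stable group among the 12 gene lists examined. Of 14 such genes, 13 had a peak in all 4 libraries, 12 lay in broad shared regions and 11 of these lay in stable ones. Of all 727 broad shared regions, 56.3% were stable. CAL was in a widened region, and AG also reached into a narrowed one. The median ratio of the 11 stable regions was 1.01, beside 1.02 over all stable regions. The genotypes overlapped at 3 of the 11, 3 were higher in both double mutant libraries and 5 were lower in both. The shares higher and lower in both were 32.5% and 19.6% of all stable regions, and 44.6% and 27.6% of all broad shared regions.

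AG, the class C gene of stamens and carpels, had a steady region beside an unsteady one. At chr4:10382952-10388227 it covered 4700 and 4767 bp in SWN-GFP val1 val2, against 4648 and 4628 bp in SWN-GFP, a ratio of 1.02. The double mutant libraries were both higher, by little. The adjoining region 43 bp away, which also lies in AG, had 1109 and 1845 bp in SWN-GFP val1 val2, against 2092 and 1873 bp in SWN-GFP. Its ratio was 0.745, and the libraries of the double mutant differed widely from each other.

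The class B genes of petals and stamens, AP3 and PI, were likewise steady. AP3 had 2281 and 2076 bp in SWN-GFP val1 val2, against 2101 and 2198 bp in SWN-GFP, with overlapping genotypes. PI had 4794 and 4742 bp in SWN-GFP val1 val2, against 4914 and 4979 bp in SWN-GFP, both lower in the double mutant.

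AP1, a class A gene that also specifies floral meristems, was near the upper end of the window. At chr1:25981950-25988648 it covered 6238 and 5910 bp in SWN-GFP val1 val2, against 4869 and 5044 bp in SWN-GFP, a ratio of 1.23. Both double mutant libraries were higher than both SWN-GFP libraries, and 69.7% of the bases were shared, the lowest share in the list. FUL (AGL8 in the gene table), which patterns the fruit valves, covered 2249 and 2727 bp in SWN-GFP val1 val2, against 2848 and 2795 bp in SWN-GFP. Its ratio of 0.882 became 0.797 without SWN-GFP val1 val2 replicate 2.

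The SEPALLATA genes, cofactors of the other floral MADS-box proteins, were all stable apart from SEP4, which had no broad shared region. SEP3 had 3700 and 4396 bp in SWN-GFP val1 val2, against 3874 and 3988 bp in SWN-GFP. SEP1 had 2295 and 2477 bp in SWN-GFP val1 val2, against 2533 and 2555 bp in SWN-GFP. SEP2 had 2382 and 2580 bp in SWN-GFP val1 val2, against 2056 and 1997 bp in SWN-GFP. The genotypes overlapped at SEP3, whereas the double mutant was lower at SEP1 and higher at SEP2. The ratio at SEP2 was 1.22, and 1.27 without SWN-GFP val1 val2 replicate 1.

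Genes of ovules and fruit completed the floral list. STK, an ovule identity gene, had 2155 and 2392 bp in SWN-GFP val1 val2, against 2255 and 2217 bp in SWN-GFP. SHP1, which with SHP2 shapes the margin of the fruit valves, had 3131 and 3050 bp in SWN-GFP val1 val2, against 3376 and 3343 bp in SWN-GFP. SHP2 had 1610 and 1510 bp in SWN-GFP val1 val2, against 1897 and 1907 bp in SWN-GFP. STK overlapped between the genotypes, while SHP1 and SHP2 were lower in both double mutant libraries. The ratio at SHP2 was 0.820, and 0.794 without SWN-GFP val1 val2 replicate 1. Without SWN-GFP replicate 1 it was no broad shared region.

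**Figure D5:**
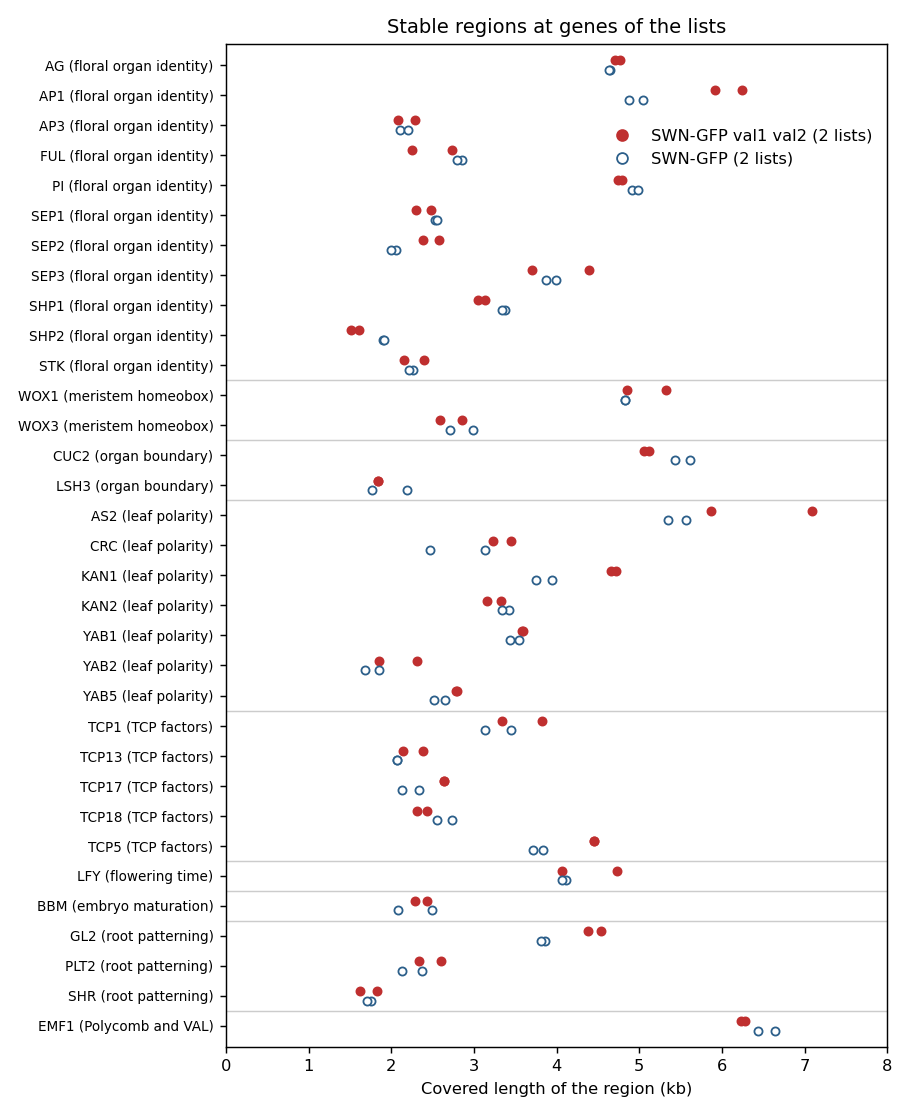
Covered length in kb (horizontal axis) of the 33 stable regions at genes of the lists, grouped by list, with filled red points for the SWN-GFP val1 val2 libraries and open blue points for the SWN-GFP libraries. At 10 of the 33 the genotypes overlap, at 14 both red points lie to the right and at 9 both lie to the left. Over all stable regions, 32.5% were higher in both double mutant libraries and 19.6% were lower in both. Over all 727 broad shared regions these shares were 44.6% and 27.6%.

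Leaf polarity genes were the second list with many stable regions. Of 15 such genes, 11 had a peak in all 4 libraries, 10 lay in broad shared regions and 7 of these were stable. The stable share of all broad shared regions was 56.3%. YAB3, INO and KAN4 (ATS in the gene table) lay in widened regions. Of the 7 stable regions, 6 were higher in both double mutant libraries and 1 was lower. The shares were 32.5% and 19.6% over all stable regions, and 44.6% and 27.6% over all broad shared regions. The median ratio was 1.18.

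KAN1 (KAN in the gene table) and KAN2 encode GARP factors of the lower leaf side. KAN1 covered 4713 and 4652 bp in SWN-GFP val1 val2, against 3944 and 3744 bp in SWN-GFP, a ratio of 1.22 that became 1.251 without SWN-GFP replicate 1. KAN2 covered 3327 and 3152 bp in SWN-GFP val1 val2, against 3417 and 3340 bp in SWN-GFP. Both double mutant libraries were higher at KAN1 and, by little, lower at KAN2. The gap between 3327 and 3340 bp at KAN2 was smaller than that between replicates of either genotype.

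The YABBY genes act in lateral organs, and 4 of them were stable. YAB1 (AFO in the gene table) had 3590 and 3578 bp in SWN-GFP val1 val2, against 3438 and 3542 bp in SWN-GFP. YAB5 had 2779 and 2796 bp in SWN-GFP val1 val2, against 2511 and 2647 bp in SWN-GFP. YAB2 had 1848 and 2311 bp in SWN-GFP val1 val2, against 1677 and 1845 bp in SWN-GFP. Each was higher in both double mutant libraries, at YAB2 by the narrowest margin. The ratio at YAB2 was 1.18, and 1.31 without SWN-GFP val1 val2 replicate 1. CRC, a YABBY gene of carpels and nectaries, covered 3227 and 3445 bp in SWN-GFP val1 val2, against 2468 and 3136 bp in SWN-GFP.

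TCP genes, whose factors limit cell proliferation in leaves and buds, were stable in 5 of the 6 that lay in broad shared regions, of 11 examined. The stable share of all broad shared regions was 56.3%. TCP2 lay in a widened region. TCP5 covered 4447 and 4454 bp in SWN-GFP val1 val2, against 3840 and 3714 bp in SWN-GFP. TCP13 (PTF1 in the gene table) covered 2145 and 2386 bp in SWN-GFP val1 val2, against 2065 and 2064 bp in SWN-GFP. TCP17 covered 2639 bp in each SWN-GFP val1 val2 library, against 2128 and 2330 bp in SWN-GFP. These leaf genes were higher in both double mutant libraries, at ratios of 1.18, 1.10 and 1.18. TCP18 (BRC1) had 2308 and 2434 bp in SWN-GFP val1 val2, against 2727 and 2546 bp in SWN-GFP, lower in both. TCP1 had 3342 and 3818 bp in SWN-GFP val1 val2, against 3448 and 3136 bp in SWN-GFP, with overlapping genotypes.

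Meristem and boundary genes were divided, where 56.3% of all broad shared regions were stable. Of 15 meristem homeobox genes 7 lay in broad shared regions, and WOX1 and WOX3 (PRS in the gene table), which act at the leaf margin, were stable. WOX1 had 4852 and 5317 bp in SWN-GFP val1 val2, against 4824 and 4829 bp in SWN-GFP. WOX3 had 2851 and 2590 bp in SWN-GFP val1 val2, against 2993 and 2710 bp in SWN-GFP. WOX1 was higher in both double mutant libraries, and at WOX3 the genotypes overlapped. KNAT6 and WOX2 lay in narrowed regions, and STM, WUS and WOX9 (HB-3 in the gene table) in widened ones.

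Of 8 organ boundary genes, all with a peak in every library, CUC2 and LSH3 were stable, and CUC3, LOB, LAS and JLO lay in widened regions. CUC2, a NAC gene that separates neighbouring organs, covered 5053 and 5121 bp at chr5:21899057-21904753 in SWN-GFP val1 val2, against 5426 and 5615 bp in SWN-GFP. It was lower in both double mutant libraries, with 90.8% shared bases. LSH3 had 1836 and 1839 bp in SWN-GFP val1 val2, against 1763 and 2183 bp in SWN-GFP, and was no broad shared region without SWN-GFP replicate 2.

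Few genes of flowering time, embryo maturation and phase change were stable, beside 56.3% of all broad shared regions. LFY, the regulator of floral meristem identity, was the stable gene among 6 flowering time genes in broad shared regions. It covered 4066 and 4724 bp in SWN-GFP val1 val2, against 4108 and 4061 bp in SWN-GFP, with overlapping genotypes. FLC and SOC1 (AGL20 in the gene table) lay in narrowed regions, and TFL1, SVP and AGL24 in widened ones. BBM, an AP2-type gene that can induce embryos, was the stable gene among 5 of embryo maturation, and ABI3, FUS3, DOG1 and ABI4 lay in narrowed regions. BBM covered 2287 and 2426 bp in SWN-GFP val1 val2, against 2081 and 2492 bp in SWN-GFP. The SWN-GFP libraries of BBM spanned those of the double mutant. None of the 4 phase change genes in broad shared regions was stable, nor were the auxin genes YUC1 and YUC2.

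Root patterning genes were stable in 3 of the 4 cases with a broad shared region, of 9 genes examined. Of all broad shared regions, 56.3% were stable. PLT2, an AP2-type gene of the root stem cell niche, had 2337 and 2597 bp in SWN-GFP val1 val2, against 2126 and 2375 bp in SWN-GFP. SHR, a GRAS gene of radial root pattern, had 1624 and 1831 bp in SWN-GFP val1 val2, against 1747 and 1709 bp in SWN-GFP. Both overlapped between genotypes, and SHR was no broad shared region without SWN-GFP replicate 1 or without SWN-GFP val1 val2 replicate 2. GL2, a homeobox gene of root hair and trichome patterning, had 4384 and 4536 bp in SWN-GFP val1 val2, against 3864 and 3805 bp in SWN-GFP. It was higher in both double mutant libraries and unbroken there, whereas it consisted of 3 peaks in each SWN-GFP library. PLT3 (AIL6 in the gene table) lay in a narrowed region.

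The SHI/STYLISH genes, zinc finger factors of style, leaf and lateral root development, were looked at after their values were seen. Of 10 such genes in the gene table, 6 lay in broad shared regions and all of these were stable, with ratios from 0.942 to 1.03. Of all broad shared regions, 56.3% were stable. STY1, at chr3:18958871-18966845, covered 7678 and 7878 bp in SWN-GFP val1 val2, against 7544 and 7841 bp in SWN-GFP. STY2, at chr4:17153669-17160124, covered 5113 and 5819 bp in SWN-GFP val1 val2, against 5988 and 5613 bp in SWN-GFP. SHI covered 4198 and 4403 bp in SWN-GFP val1 val2, against 4542 and 4370 bp in SWN-GFP. The genotypes overlapped at all of them except SRS5, which was higher in both double mutant libraries, with 2025 and 2027 bp in SWN-GFP val1 val2, against 1975 and 1946 bp in SWN-GFP.

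The other members of the family were SRS7 and LRP1. SRS7 covered 3321 and 3269 bp in SWN-GFP val1 val2, against 3192 and 3338 bp in SWN-GFP. LRP1 covered 2503 and 2521 bp in SWN-GFP val1 val2, against 2396 and 2565 bp in SWN-GFP. In each the SWN-GFP libraries spanned those of the double mutant. The median of shared bases over the 6 regions was 93.7%, beside 81.9% over all stable regions.

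Larger transcription factor families, chosen in the same way, were spread over all ratios. Of 21 NAC genes in broad shared regions 12 were in stable ones, as were 11 of 22 MYB genes and 9 of 20 WRKY genes, beside the 56.3% of regions. Of 20 microRNA genes in broad shared regions, 9 were in stable ones and 10 in widened ones. MIR172c, whose microRNA targets AP2-type flowering repressors, had 2236 and 2380 bp in SWN-GFP val1 val2, against 1999 and 2083 bp in SWN-GFP. MIR319c, whose microRNA targets TCP genes of leaves, had 2175 and 2049 bp in SWN-GFP val1 val2, against 1829 and 1917 bp in SWN-GFP. Both were higher in both double mutant libraries. MIR157d, of the family that targets SPL genes, had 1895 and 2114 bp in SWN-GFP val1 val2, against 1994 and 1920 bp in SWN-GFP, with overlapping genotypes.

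The point of strongest enrichment was displaced in some stable regions, at shares close to those of all broad shared regions. The distance between the strongest summits of a region had a median of 104 bp between genotypes, as a mean over 4 pairs of libraries, and of 85.5 bp between replicates. It was at most 100 bp in all 6 pairs of libraries in 118 stable regions (28.9%, beside 23.5% of all broad shared regions). It averaged over 500 bp between genotypes in 73 (17.8%, beside 20.2%). In 18 stable regions (4.40%, beside 4.13% of all broad shared regions) it exceeded 500 bp between genotypes while replicates lay within 100 bp of each other on average. The genes named from this group were chosen after their values were seen, except AS2 and YAB1.

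AS2, an LBD gene of the upper leaf side, showed the greatest displacement of the strongest summit. Its strongest summit was at 24398182 and 24398176 on chromosome 1 in SWN-GFP val1 val2, against 24402351 and 24402337 in SWN-GFP. The genotypes differed by a mean of 4165 bp and the replicates by 10 bp. Both SWN-GFP val1 val2 lists also held a weaker peak near the SWN-GFP position, with summits at 24402333 and 24402311 and folds of 4.18 and 4.38. The displacement is therefore a change in which peak of the region ranked highest, and not the loss of a peak. The width of the region was 5863 and 7095 bp in SWN-GFP val1 val2, against 5351 and 5566 bp in SWN-GFP, a ratio of 1.19. The fold at these summits was 7.82 and 7.97 in the lists of SWN-GFP val1 val2 and 6.52 and 8.34 in the SWN-GFP lists. Their percentiles were 95.7 and 96.4 in the lists of SWN-GFP val1 val2 and 90.3 and 95.3 in those of SWN-GFP.

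Smaller displacements of the strongest summit were found at other regulators. At MYB47 the summits lay 2118.5 bp apart between genotypes and 10.5 bp between replicates. At MYB37, a regulator of axillary meristems, the distances were 1028.5 and 6.5 bp. At SRS7 they were 1900.0 and 67 bp, although 96.3% of the covered bases were shared. At YAB1 they were 795 and 39 bp. In each of these regions the replicates lay closer to each other than the genotypes did, which is how the regions were chosen.

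Folds at a pair of the named regions are given as the authors' values, each within its own list. Depth and control of each list are unknown, so no difference between lists is read from them. WRKY48, a stress-related WRKY gene, covered 3743 and 3676 bp in SWN-GFP val1 val2, against 3947 and 4054 bp in SWN-GFP. Its fold was 13.3 and 14.3 in the lists of SWN-GFP val1 val2 and 26.8 and 24.0 in the SWN-GFP lists. The STY1 region had folds of 18.0 and 18.1 in the lists of SWN-GFP val1 val2 and 13.0 and 13.1 in the SWN-GFP lists.

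The stable regions were spread over the genome and mostly held a single protein-coding gene, as did the broad shared regions in general. Counts were 101, 67, 84, 60 and 97 on chromosomes 1 to 5. They overlapped 471 protein-coding genes, 394 of them over at least 50% of the gene span and 236 over all of it. A region held 1 protein-coding gene in 286 cases (69.9%, beside 68.4% of all broad shared regions). It held 2 or more in 86 and none in 37, and 14 held no gene of any type. The median share of a region that lay in protein-coding spans was 64.9%, beside 64.5% over all broad shared regions. The stable regions also overlapped 51 long non-coding RNA genes and 9 microRNA genes.

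Stable regions lay beside other stable regions and beside regions that were not stable. Of 105 pairs of neighbouring broad shared regions within 10 kb of each other, 44 joined 2 stable regions and 23 held none. The stable share of 56.3% counts single broad shared regions and is no baseline for pairs. A stable region was paired with a narrowed region in 14 cases and with a widened region in 24. The regions of GPAT5, a suberin synthesis gene, and MIR172c were 3 bp apart and both stable. The regions beside YAB1 and KAN1, 30 and 375 bp away, held no gene and were widened. Separate regions at such distances depend on where the peak caller broke a domain.

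Regions on either side of the ends of the window differed little in ratio. Just inside were AT1G33743 at 0.801, WAG1, a protein kinase gene of auxin transport, at 0.806, CYP94B1 at 1.243 and TPS10 at 1.249. Just outside were NGA4 at 0.798, KNAT6 at 0.796, SNZ at 1.253 and AT2G47530 at 1.26. WAG1 had 1776 and 1964 bp in SWN-GFP val1 val2, against 2446 and 2197 bp in SWN-GFP. KNAT6 had 1832 and 1892 bp in SWN-GFP val1 val2, against 2361 and 2315 bp in SWN-GFP. Both were lower in both double mutant libraries by similar amounts, although 1 was counted as stable and 1 was not. All 4 regions just inside left the window when a library was left out. Without SWN-GFP val1 val2 replicate 1 the ratio was 0.773 at AT1G33743 and 1.32 at TPS10. Without SWN-GFP replicate 2 it was 0.765 at WAG1 and 1.39 at CYP94B1.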

How the data were processed

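Per the submitters' processing notes, reads were handled with Bowtie2, SAMtools, Picard and MACS2 on the TAIR10 build; no source used here gives versions, settings or the control behind a list. The 4 deposited peak lists, 1 per immunoprecipitated library, have no header, and their columns were taken as those of a MACS2 table. The deposited pileup is a signal at the summit, in whole numbers, the deposited −log10 p and −log10 q are the peak caller's, and the fold is the authors' ratio over local background. Scores were used within their own list. Coordinates are 1-based. The lists give no read totals, so no counting interval is given.

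Union regions, covered length, shared bases and strongest summits (by fold) were computed with Python 3.11.15, pandas 2.3.3, NumPy 2.4.6 and SciPy 1.17.1, and the steps were tested on simulated peaks. Genes were taken from RefSeq TAIR10.1 without its coordinates being printed; it gives no strand or exon, and 68.6% of peak summits lay in protein-coding spans, against 46.5% and 46.2% when moved by 1000 bp down or up. The members, the 12 gene lists (150 of 151 genes matched) and the tests were chosen with earlier results of these data known. Named regions were the 25 strongest by mean percentile, the 5 longest, all at listed genes, and 2 on either side of each end of the window; a region is called by the protein-coding gene with most bp in it. Shared bases, gene families, groups by strength and displaced summits were added after seeing the data. No genome sequence was used here, so planned motif shares were not computed. Alternatives were other lengths, windows, peak thresholds, merging and list lengths, and leaving out each library.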

Additional observations from a re-analysis of the deposited data

How the results depend on the processing

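With a replicate block, added after seeing the data, the ratio of summed covered length over all 727 broad shared regions was 1.04 (exact paired p = 0.5, the smallest that 2 pairs allow). The labels do not say that equal replicate numbers share anything, and deviations of equal numbers correlated at -0.012 across the 727 regions, so the numbers were not taken to pair the libraries. No other result comes from a test. Depth is unknown, which limits every statement on weak peaks. Of 99 summaries under 15 alternative settings, 55 stayed, 43 moved and 1 changed direction. The count of 409 stable regions was 656 with a minimum length of 1500 bp, 157 with 3000 bp and 230 with a narrower window of 10% down to 11% up, with 719, 205 and 275 protein-coding genes. It was 361 with a −log10 q of at least 5, 327 with a fold of at least 3, 443 with peaks merged within 200 bp, 403 with lists of 8189 peaks each and 360 to 392 without 1 library. In the order minimum length 1500 bp, 3000 bp and narrow window, stable regions were 50.7%, 65.1% and 31.6% of broad shared regions, replicate agreement (84.5% in the mean of the genotypes) was 78.1%, 89.8% and 59.4%, the median percentile (93.3) was 91.3, 96.5 and 93.9, and peaks per region (1.70) were 1.54, 2.06 and 1.62. With merging within 200 bp these were 47.3%, 78.3%, 92.3 and 2.06. Agreement and peaks per region were 78.8% and 1.38 with the q limit, and 77.2% and 1.29 with the fold limit. The share found again in the replicate 2 libraries (76.2%) was 83.0% with 3000 bp, 54.3% with the narrow window, 71.1% with merging and 69.1% with the fold limit. The median summit distance (104 bp) was 88.5 bp with 3000 bp and 112.5 bp with merging. Without 1 library, the ranges were 56.0% to 60.3% of regions, 414 to 450 genes, 86.0% to 88.6% agreement, percentiles of 93.3 to 94.0, 1.61 to 1.64 peaks, 87 to 94.5 bp, and 0.972 to 1.09 for the ratio of summed covered length, which changed direction without SWN-GFP val1 val2 replicate 2. A lower length limit passes more regions and stricter limits fewer by construction; the cause of the other shifts was not tested. Of the 60 named stable regions, 44 stayed stable without any 1 library.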
